A study of Mus musculus with 8 samples.

Results

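Fatty acid oxidation in mitochondria and peroxisomes, together with peroxisome assembly, was followed through 50 genes in sorted liver macrophages. Of these, 32 were listed enzymes, carriers and transporters, and 18 were the symbols of the series' expression matrix that begin with Pex and a digit, out of 29956 named genes in that matrix. The Pex symbols comprised 17 protein-coding genes, mostly peroxins, and the pseudogene Pex13-ps. Macrophages were sorted from livers of BALB/c WT mice treated with carbon tetrachloride (CCl4, 4 libraries) or with vehicle (4 libraries). CCl4 is a liver toxicant whose repeated use produces fibrosis in mice. The sorted gate was positive for CD45, a leukocyte protein, and for F4/80, a macrophage protein, and, per the series' design text, negative for the endothelial protein CD31. Both groups were digested with collagenase and depleted of hepatocytes by low-speed centrifugation before sorting. The sources used here give no dose, duration, age or sex. Whether the libraries come from separate mice is not stated in the labels, and the p-values then measure only the spread between these libraries, which may be technical.

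Long-chain fatty acids are activated to acyl-CoA, passed into mitochondria by the carnitine shuttle and shortened there in a cycle of dehydrogenation, hydration, a second dehydrogenation and thiolysis. Very-long-chain and branched fatty acids are first shortened in peroxisomes, where acyl-CoA oxidases replace the dehydrogenases and release hydrogen peroxide, and ABCD transporters carry the acyl-CoA across the membrane. Peroxins build the peroxisomal membrane and import enzymes whose ends carry a short targeting signal. In macrophages, fatty acid oxidation is often discussed with alternative activation and with the clearance of lipid-rich debris.

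The sorted cells were macrophages by their markers, but the marker lists differed between the groups. Of 12 pan-macrophage markers 1 was higher and 1 lower with CCl4, and their summed level was 59238 to 62747 CPM (counts scaled to the library total) in CCl4 libraries and 37072 to 43421 CPM in vehicle libraries. The most abundant of them, Lyz2, was the higher one, with TMM-normalized means of 47034 CPM with CCl4 and 16441 CPM with vehicle. The median log2 fold change of the 12 was -0.10, with 5 above 0, so the higher sum does not describe the list as a whole. Of 14 Kupffer cell markers 13 were lower, with sums of 8728 to 15076 CPM in CCl4 libraries and 28078 to 42568 CPM in vehicle libraries. All 10 lipid-associated macrophage markers were higher, with sums of 35181 to 43785 CPM in CCl4 libraries and 5875 to 6883 CPM in vehicle libraries. Of 22 hepatocyte markers none was higher and 2 were lower, with sums of 146 to 239 CPM in CCl4 libraries and 192 to 365 CPM in vehicle libraries. Endothelial markers summed to 540.3 to 649 CPM in CCl4 libraries and 814 to 1228 CPM in vehicle libraries. Mesothelial and biliary markers summed to 1503 to 3132 CPM in CCl4 libraries and 25.2 to 252 CPM in vehicle libraries, nearly all of it Spp1, which is also on the lipid-associated macrophage list. Without Spp1, 7 of the other 9 were higher and the sums were 53.0 to 144 CPM in CCl4 libraries and 5.81 to 16.1 CPM in vehicle libraries. Of 7 monocyte markers 3 were higher, with sums of 568 to 907 CPM in CCl4 libraries and 246 to 491 CPM in vehicle libraries. Of 12 neutrophil markers 7 were higher, with sums of 267 to 494 CPM in CCl4 libraries and 116 to 251 CPM in vehicle libraries. Sums of stellate cell and of lymphocyte markers overlapped between the groups. No marker was at 0 in every library. The 13 genes of the mitochondrial genome were all lower, with sums of 7632 to 11638 CPM in CCl4 libraries and 19139 to 53097 CPM in vehicle libraries. The part of these shifts in the results below was not tested, and in bulk RNA fewer cells of a type and less RNA per cell cannot be told apart. Library totals overlapped, at 19427926 to 26119167 estimated counts in CCl4 libraries and 19626123 to 25741178 in vehicle libraries (exact permutation test, two-sided p = 0.771). CCl4 4 and vehicle 2 stood apart in holding 3034 and 3094 CPM of olfactory and vomeronasal receptor genes. The other libraries held at most 1538 CPM.

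Most genes of the program stayed within a 2-fold change, and the 5 that passed the test were spread over 4 roles. The peroxisomal oxidase Acox3, the transporter Abcd2 and the mitochondrial dehydrogenase Acadl were higher in CCl4 macrophages. The transporter Abcd4 and the mitochondrial isomerase Eci1 were lower. Counts allowed a test of 48 members, so 5 of 48 (10.4%) passed edgeR's quasi-likelihood test at a Benjamini-Hochberg adjusted p of 0.05, beside 15.2% of all 15212 genes tested. By direction, 3 members were higher (8.93% of all genes) and 2 lower (6.26% of all genes). At an unadjusted p of 0.05 the members numbered 17 of 48 (35.4%), beside 28.2% of all genes. The groups did not overlap for 15 of 48 members (31.2%), beside 22.5% of all genes. The log2 fold changes of the members ran from -0.82 to 1.07 with a median of -0.03, and the median of all genes was also -0.03. For 41 of the 48 the 95% interval lay wholly within a 2-fold change in either direction, beside 7897 of all 15212 genes. The median SE was 0.17 on the log2 scale for the members and 0.23 for all genes, so the members' intervals were also narrower.

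**Figure D1:**
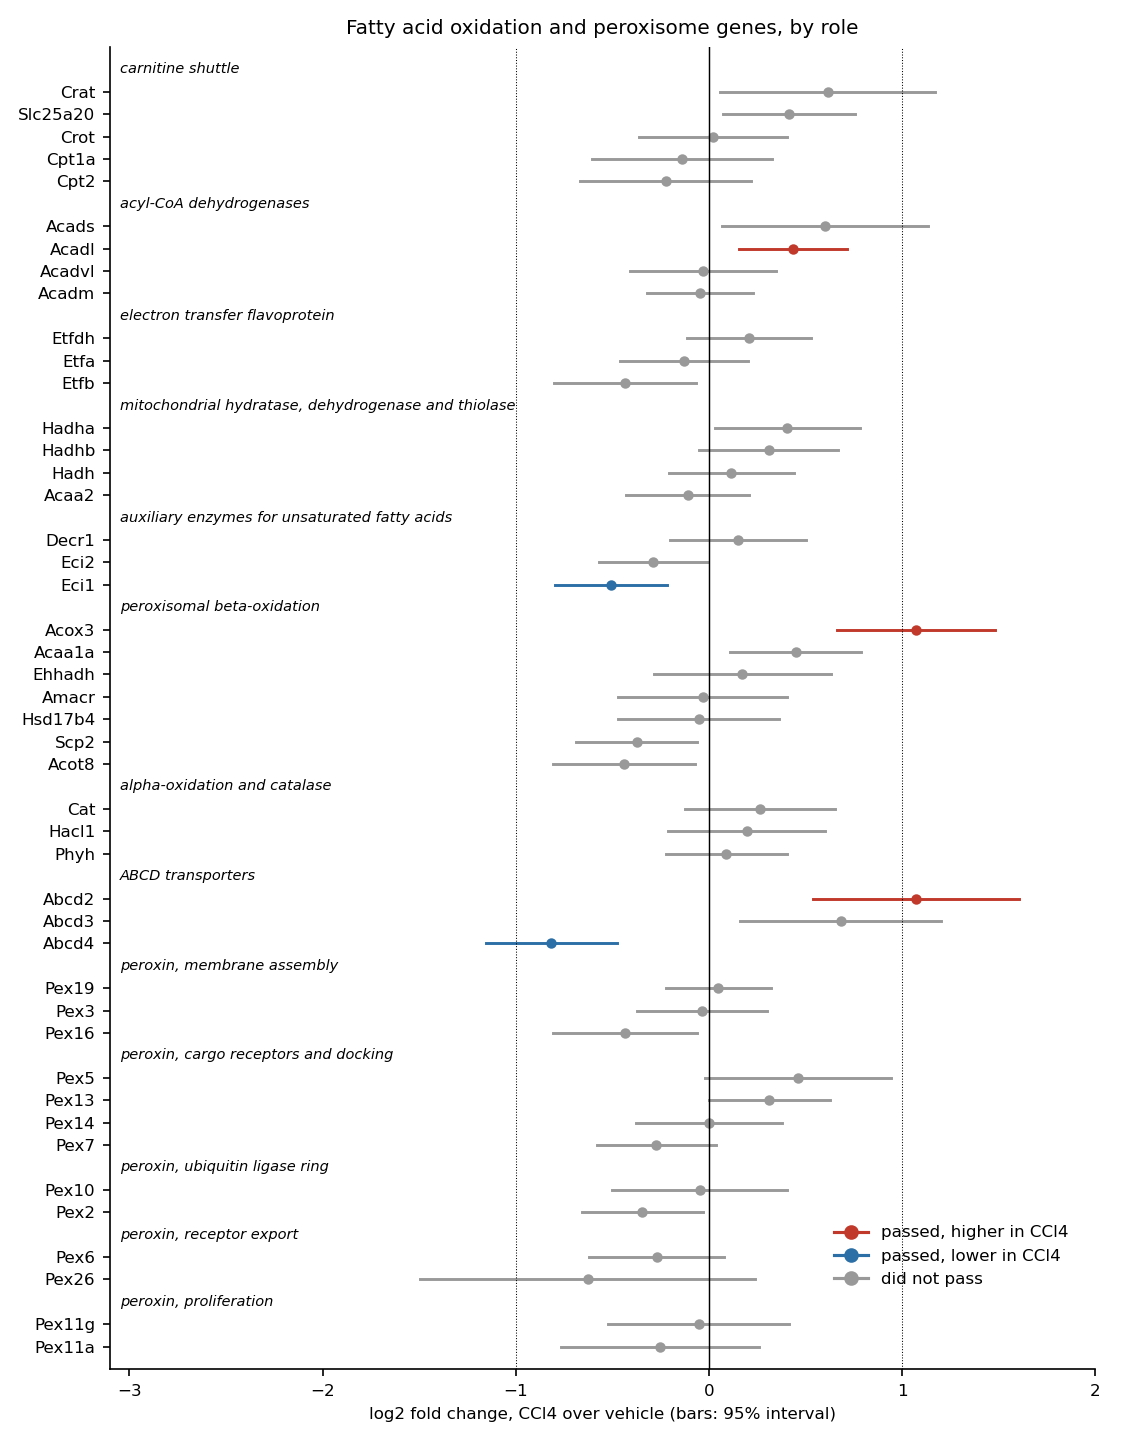
Log2 fold change (CCl4 over vehicle) of 45 of the 48 tested members, ordered by role; points are edgeR estimates from 4 CCl4 and 4 vehicle libraries, bars are 95% intervals and dotted lines mark a 2-fold change. Acox3 and Abcd2 lie near 1.07, Abcd4 at -0.82, and the peroxins at the foot of the plot all cover or nearly reach 0.

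The transcripts of these genes ranged over nearly 3 orders of magnitude per length. By mean TPM (a level scaled for transcript length and depth), Scp2, which encodes a peroxisomal thiolase and a sterol carrier protein, was the highest at 432, followed by the electron transfer flavoprotein subunits Etfb (203) and Etfa (152) and the mitochondrial thiolase Acaa2 (110). Phyh, which starts the alpha-oxidation of phytanic acid, averaged 98.4 TPM, and Hadhb, the thiolase subunit of the mitochondrial trifunctional protein, 90.5 TPM. The lowest tested member was Pex26, a membrane anchor for receptor export, at 0.775 TPM. Summed over the 19 carnitine shuttle and mitochondrial members, libraries held 976 to 1113 TPM with CCl4 and 969 to 1145 TPM with vehicle. The 13 peroxisomal enzymes and ABCD transporters summed to 769 to 939 TPM with CCl4 and 805 to 1020 TPM with vehicle. The peroxins summed to 245 to 277 TPM with CCl4 and 238 to 291 TPM with vehicle. The groups overlapped in all 3 sums.

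**Figure D2:**
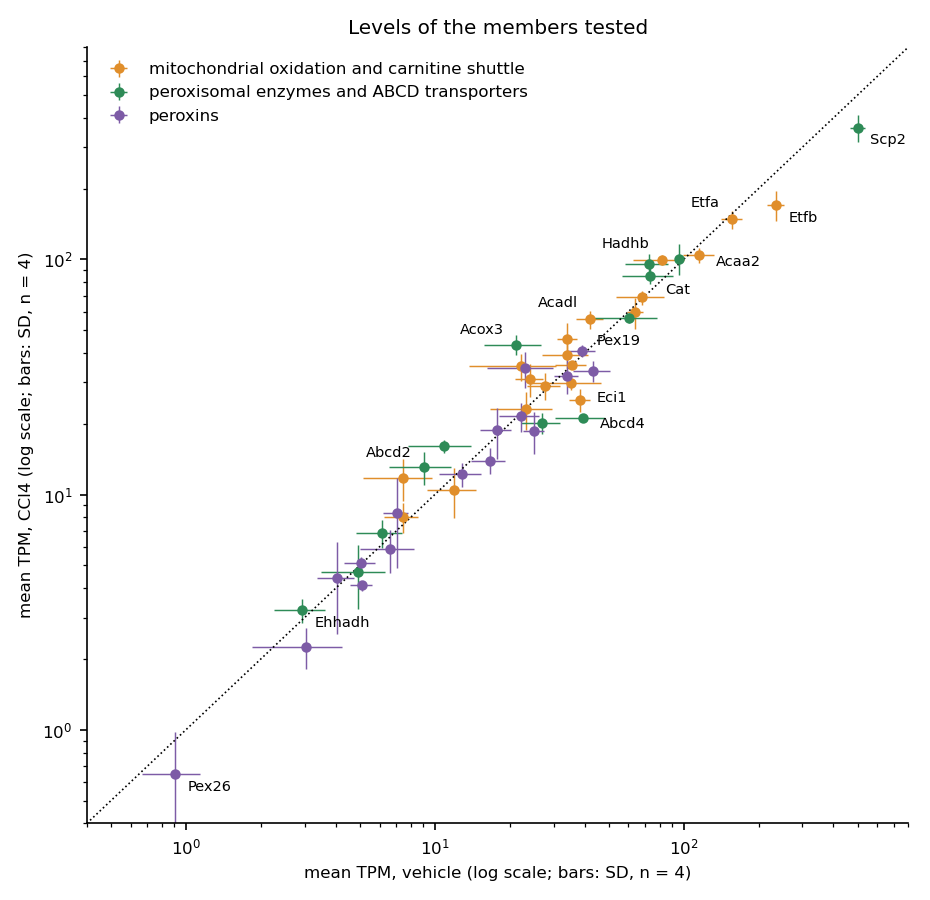
Mean level of each tested member in CCl4 libraries (vertical axis, TPM, log scale) against vehicle libraries (horizontal axis, TPM, log scale), n = 4 each; bars are SD and the dotted line marks equal levels. Scp2 sits highest, at 363 TPM with CCl4 and 501 TPM with vehicle, and Pex26 lowest; Acox3 lies above the line and Abcd4 below it.

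Acox3 encodes the acyl-CoA oxidase that starts the peroxisomal oxidation of branched-chain acyl-CoA. The gene lies on the plus strand of chr5:35583040-35615352 (mm10, GENCODE M21). TMM-normalized levels were 122, 101, 144 and 103 CPM in CCl4 libraries 1 to 4, against 62.5, 38.8, 59.5 and 62.4 CPM in vehicle libraries 1 to 4. Every CCl4 library lay above every vehicle library, and vehicle 2 was the lowest of the 8. The log2 fold change was 1.07 (SE 0.19; edgeR adjusted p = 0.0025). Without vehicle 2 it was 0.93 (edgeR adjusted p = 0.0015). The gene is also the one member that passed in the authors' FPKM table, at 4.59 ± 0.81 FPKM with CCl4 and 2.39 ± 0.64 FPKM with vehicle (SD, n = 4 each; limma adjusted p = 0.029 on log2(FPKM + 1)).

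By the estimated counts, the rise of Acox3 lay in 1 of its transcripts. Acox3-202, a protein-coding transcript, had 92.8, 74.2, 120 and 78.9 CPM in CCl4 libraries 1 to 4, against 36.2, 13.6, 36.7 and 38.1 CPM in vehicle libraries 1 to 4. The groups were apart, with means of 91.5 ± 20.7 and 31.2 ± 11.8 CPM (SD, n = 4 each), a log2 ratio of 1.55 and an exact permutation p of 0.0286, the smallest that 4 against 4 libraries can give. The other 3 transcripts with at least 5% of the gene's counts did not separate the groups. The retained-intron transcript Acox3-205 averaged 8.40 CPM with CCl4 and 9.49 CPM with vehicle, and the protein-coding Acox3-201 averaged 5.68 CPM with CCl4 and 6.28 CPM with vehicle. Acox3-204, also protein-coding, averaged 5.94 CPM with CCl4 and 6.85 CPM with vehicle. Acox3-202 held 73.5% to 83.4% of the gene's estimated counts in CCl4 libraries and 35.03% to 61.8% in vehicle libraries.

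The protein-coding transcripts differ in their last coding exon. It is shown here because it tells Acox3-202, whose groups were apart, from those whose groups overlapped. Each run is the coding part of the last exon with the stop codon, plus strand, mm10, read from the GENCODE M21 transcripts. Capitals mark the 3 codons before the stop, where a peroxisomal targeting signal would be encoded.
Acox3-202 (chr5:35612015-35612134): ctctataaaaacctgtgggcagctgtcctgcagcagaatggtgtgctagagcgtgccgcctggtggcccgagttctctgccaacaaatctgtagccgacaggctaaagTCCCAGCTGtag
Acox3-201 (chr5:35611080-35611190): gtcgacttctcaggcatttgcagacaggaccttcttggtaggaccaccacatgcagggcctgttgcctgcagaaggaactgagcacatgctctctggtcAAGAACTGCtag
Acox3-204 (chr5:35611488-35611562): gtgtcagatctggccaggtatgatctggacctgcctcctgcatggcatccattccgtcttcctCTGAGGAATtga
The last codons of Acox3-202 encode serine, glutamine and leucine. None of the 3 ends matched the pattern searched for. It was serine, alanine or cysteine, then lysine, arginine or histidine, then leucine or methionine. That pattern leaves out glutamine as the middle residue, so the end of Acox3-202 could not match. The search therefore cannot say whether any of these ends acts as a targeting signal. An antisense gene, 4931431C16Rik, overlaps Acox3 exon sequence by up to 473 bases, and the labels name no step that keeps the strand. Its part in the values of each transcript was not tested.

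**Figure D3:**
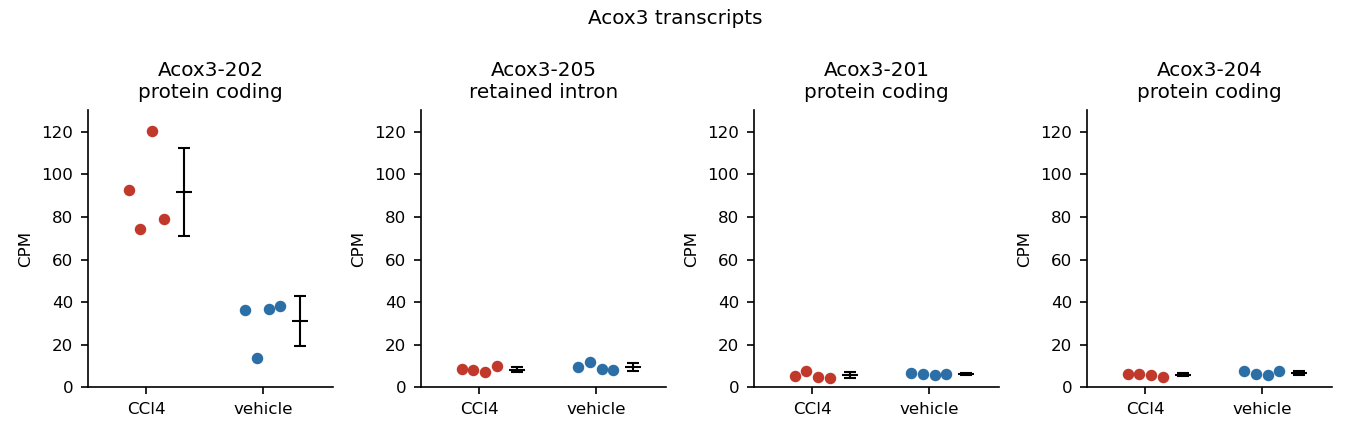
Level of the 4 Acox3 transcripts that hold at least 5% of the gene's counts (CPM, same scale in each panel) in 4 CCl4 and 4 vehicle libraries; points are libraries and bars are mean and SD. Acox3-202 lies between 74.2 and 120 CPM with CCl4 and between 13.6 and 38.1 CPM with vehicle, while the other 3 reach at most 11.96 CPM.

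Across the 31 members whose main transcript held under 95% of a gene's counts, 3 had shares that did not overlap between the groups, beside 7.18% of the 8422 genes so examined. Acox3 had the largest difference, 23.5 percentage points, and ranked 306th of 8422. Etfa-201, the main transcript of the flavoprotein subunit, held 83.0% to 88.4% of Etfa counts in CCl4 libraries and 90.1% to 92.6% in vehicle libraries. Its processed transcript Etfa-204 averaged 16.0 CPM with CCl4 and 7.999 CPM with vehicle. Acaa1a-201, the main transcript of the peroxisomal thiolase Acaa1a, held 90.6% to 93.5% in CCl4 libraries and 95.1% to 97.3% in vehicle libraries. No share passed adjustment over all genes (exact permutation test, smallest adjusted p = 0.398), a limit set by the 70 regroupings that 8 libraries allow.

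Of the 3 ABCD transporters, 1 was higher and 1 lower. Abcd2 encodes a peroxisomal transporter of very-long-chain and polyunsaturated acyl-CoA and lies on the minus strand of chr15:91145871-91191799. It had 37.4, 46.4, 50.4 and 44.6 CPM in CCl4 libraries 1 to 4, against 21.02, 11.8, 31.4 and 20.7 CPM in vehicle libraries 1 to 4. The groups did not overlap, with vehicle 2 again the lowest (log2 fold change 1.07, SE 0.24, edgeR adjusted p = 0.012). Counts scaled for transcript length gave 0.54 and did not pass (edgeR adjusted p = 0.108). The full-length transcript Abcd2-201 stayed apart per length, at 8.01 to 11.3 TPM with CCl4 and 2.42 to 7.25 TPM with vehicle, while the short retained-intron transcript Abcd2-203 spanned 0.872 to 5.16 TPM with CCl4 and 1.30 to 4.75 TPM with vehicle.

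Abcd4 belongs to the same family by sequence but is known as a lysosomal transporter of cobalamin rather than a peroxisomal one. It lies on the minus strand of chr12:84601464-84617413. Its levels were 38.3, 34.7, 38.5 and 33.6 CPM in CCl4 libraries 1 to 4, against 73.2, 48.7, 72.2 and 61.1 CPM in vehicle libraries 1 to 4. The groups were apart, the CCl4 libraries being the tighter set (log2 fold change -0.82, SE 0.15, edgeR adjusted p = 0.0041). In the FPKM table it averaged 1.399 FPKM with CCl4 and 2.73 FPKM with vehicle and did not pass (limma adjusted p = 0.063). Abcd3, the abundant peroxisomal membrane protein PMP70, had 38.1, 36.7, 43.5 and 37.7 CPM in CCl4 libraries 1 to 4, against 24.5, 12.4, 30.9 and 29.3 CPM in vehicle libraries 1 to 4. These groups did not overlap either, but the test was missed (log2 fold change 0.68, SE 0.24, edgeR adjusted p = 0.078). DESeq2 called it higher, as did edgeR without a filter on low counts and without vehicle 2, its lowest library.

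**Figure D4:**
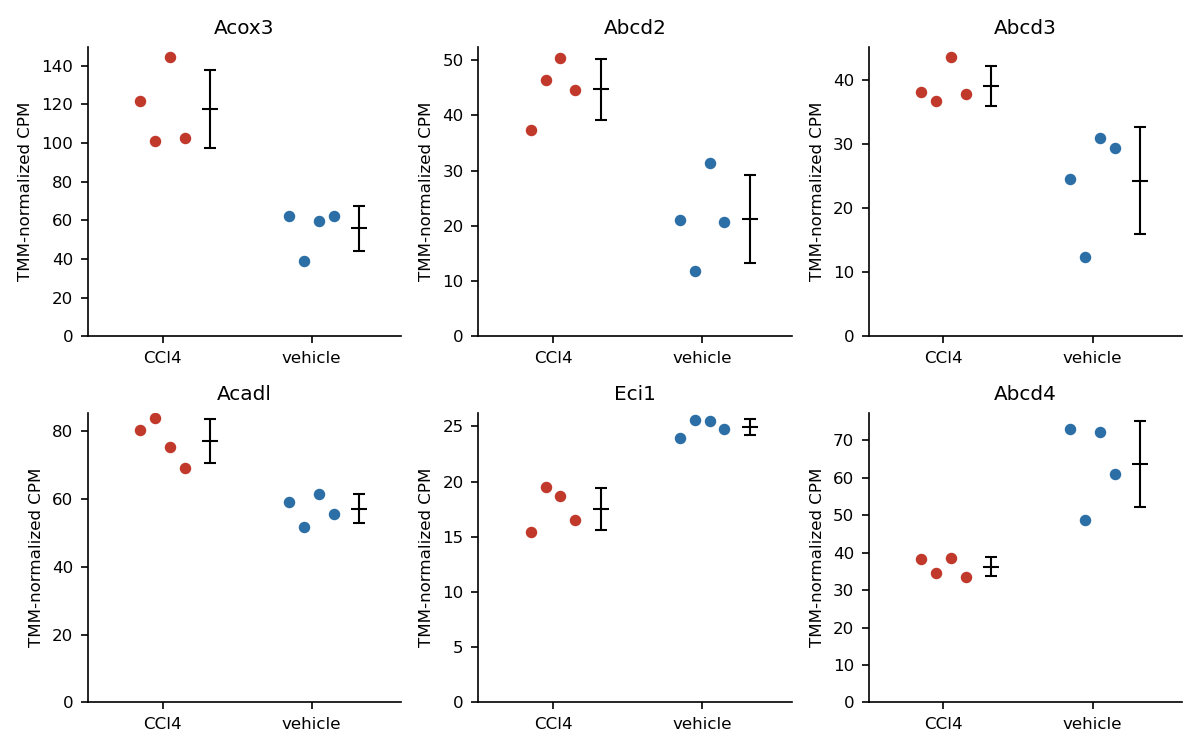
TMM-normalized CPM of 6 members in 4 CCl4 and 4 vehicle libraries; points are libraries, bars are mean and SD, and each axis starts at 0. The groups do not overlap for any of the 6, with CCl4 above vehicle for Acox3, Abcd2, Abcd3 and Acadl and below it for Eci1 and Abcd4; Abcd3 did not pass the test.

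Among the other enzymes of the peroxisomal cycle, 3 more had groups that did not overlap. With Acox3 that made 4 of 7, beside 22.5% of all genes. None of the 3 had an edgeR adjusted p under 0.05 with the usual settings. Scp2 had 240.5, 301, 272 and 217 CPM in CCl4 libraries 1 to 4, against 328, 339, 334 and 334 CPM in vehicle libraries 1 to 4. The vehicle libraries were within a narrow band and all above the CCl4 libraries (log2 fold change -0.37, SE 0.14, edgeR adjusted p = 0.108). DESeq2 called Scp2 lower (adjusted p = 0.036), as did edgeR with library sizes alone (adjusted p = 0.022). Acaa1a, the thiolase that ends the straight-chain cycle, averaged 120.5 ± 15.2 CPM with CCl4 and 88.2 ± 12.7 CPM with vehicle (SD, n = 4 each; log2 fold change 0.45, edgeR adjusted p = 0.075). DESeq2 called it higher, as did edgeR at a minimum count of 50. Its reads may be shared with the near-identical paralogue Acaa1b. Acot8, a thioesterase that releases free acids from acyl-CoA, averaged 13.8 ± 2.41 CPM with CCl4 and 18.7 ± 2.18 CPM with vehicle (SD, n = 4 each; log2 fold change -0.44, edgeR adjusted p = 0.107). It was called lower by edgeR at a minimum count of 50 and with library sizes alone.

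The bifunctional enzymes and the racemase that feeds branched acids into the cycle had overlapping groups. Hsd17b4, the D-bifunctional enzyme, averaged 108 CPM with CCl4 and 112 CPM with vehicle (log2 fold change -0.05, 95% interval -0.47 to 0.36). Ehhadh, the L-bifunctional enzyme, averaged 7.39 CPM with CCl4 and 6.55 CPM with vehicle (interval -0.29 to 0.63). Amacr, the racemase, averaged 8.45 CPM with CCl4 and 8.64 CPM with vehicle (interval -0.47 to 0.41). Alpha-oxidation genes and catalase also overlapped. Phyh averaged 96.9 CPM with CCl4 and 91.0 CPM with vehicle (interval -0.22 to 0.40), and the lyase Hacl1 10.8 CPM with CCl4 and 9.45 CPM with vehicle (interval -0.21 to 0.60). Cat, whose product removes the hydrogen peroxide that the oxidases release, had 162, 175, 204 and 139 CPM in CCl4 libraries 1 to 4, against 150.3, 103, 161 and 151 CPM in vehicle libraries 1 to 4 (log2 fold change 0.27, interval -0.12 to 0.65).

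In the mitochondrial cycle the acyl-CoA dehydrogenases, which act by chain length, behaved unevenly. Acadl, the long-chain enzyme, lies on the minus strand of chr1:66830839-66863277. It had 80.4, 83.8, 75.2 and 69.1 CPM in CCl4 libraries 1 to 4, against 59.2, 51.8, 61.6 and 55.7 CPM in vehicle libraries 1 to 4. The groups were apart (log2 fold change 0.43, SE 0.13, edgeR adjusted p = 0.041), but the call sat close to the threshold and was lost in 14 of 20 alternative settings. Leaving out CCl4 1, 2 or 3 or vehicle 1, 3 or 4 gave an edgeR adjusted p between 0.0527 and 0.116. Acads, the short-chain enzyme, averaged 14.8 ± 3.69 CPM with CCl4 and 9.73 ± 2.61 CPM with vehicle, with overlapping groups (SD, n = 4 each; log2 fold change 0.60, SE 0.24, edgeR adjusted p = 0.129). The very-long-chain enzyme Acadvl averaged 96.7 CPM with CCl4 and 98.8 CPM with vehicle (95% interval -0.41 to 0.35), and the medium-chain enzyme Acadm 44.8 CPM with CCl4 and 46.3 CPM with vehicle (interval -0.32 to 0.23).

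Eci1 moves the double bond of unsaturated acyl-CoA so that the mitochondrial cycle can go on. It lies on the plus strand of chr17:24426641-24439348. Levels were 15.4, 19.5, 18.7 and 16.5 CPM in CCl4 libraries 1 to 4, against 23.9, 25.6, 25.5 and 24.8 CPM in vehicle libraries 1 to 4. All CCl4 libraries lay below all vehicle libraries (log2 fold change -0.51, SE 0.13, edgeR adjusted p = 0.024). In the authors' FPKM table, however, Eci1 is listed at 0 in 7 of 8 libraries, so the call rests on the transcript counts alone. It was lost without CCl4 1, 3 or 4 or vehicle 1, 3 or 4 (edgeR adjusted p between 0.0504 and 0.0756). Eci2, a related isomerase of mitochondria and peroxisomes, averaged 38.7 ± 4.16 CPM with CCl4 and 47.4 ± 2.28 CPM with vehicle (SD, n = 4 each). Its groups were apart, and it did not pass (log2 fold change -0.29, edgeR adjusted p = 0.161). The dienoyl reductase Decr1 averaged 17.8 CPM with CCl4 and 16.0 CPM with vehicle (interval -0.20 to 0.50).

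The carnitine shuttle, the electron transfer flavoprotein, the mitochondrial steps after dehydrogenation and the alpha-oxidation group hold 15 members. These roles were grouped for having no edgeR call, so the absence of edgeR calls among the 15 is not a result. DESeq2 and limma on the FPKM table called 0 of the 15, and 4 of the 15 had an unadjusted edgeR p under 0.05. The way the roles were chosen bears on these counts too. Cpt1a, the outer-membrane transferase at which entry into mitochondria is controlled, had 84.0, 85.4, 93.4 and 77.4 CPM in CCl4 libraries 1 to 4, against 97.3, 53.3, 109 and 115 CPM in vehicle libraries 1 to 4. The CCl4 libraries lay inside the wider span of the vehicle libraries (log2 fold change -0.14, 95% interval -0.61 to 0.33). Cpt2, its inner-membrane partner, averaged 16.1 CPM with CCl4 and 18.8 CPM with vehicle (interval -0.67 to 0.22). The carnitine-acylcarnitine translocase Slc25a20 averaged 57.2 ± 11.3 CPM with CCl4 and 42.9 ± 3.00 CPM with vehicle (SD, n = 4 each; log2 fold change 0.42, edgeR adjusted p = 0.100). The carnitine acetyltransferase Crat averaged 67.5 ± 12.5 CPM with CCl4 and 44.0 ± 15.2 CPM with vehicle, and its groups were apart (SD, n = 4 each; log2 fold change 0.62, SE 0.25, edgeR adjusted p = 0.135). Crot, the peroxisomal octanoyltransferase, averaged 51.0 CPM with CCl4 and 50.3 CPM with vehicle (interval -0.36 to 0.40).

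Of 3 electron transfer genes and 4 genes of the later steps, edgeR, DESeq2 and limma on the FPKM table called 0. In each set 1 gene had an unadjusted edgeR p under 0.05, beside 28.2% of all genes. Both sets are part of the 15 members above, which were grouped for having no edgeR call. The flavoprotein that takes electrons from the dehydrogenases is built of Etfa and Etfb. Etfb had 76.9, 103.5, 104 and 72.0 CPM in CCl4 libraries 1 to 4, against 114, 145, 112 and 110.4 CPM in vehicle libraries 1 to 4. Its groups were apart without passing (log2 fold change -0.44, SE 0.17, edgeR adjusted p = 0.109), though edgeR with library sizes alone called it lower. Etfa averaged 119 CPM with CCl4 and 130 CPM with vehicle (95% interval -0.46 to 0.20), and Etfdh, which passes the electrons to ubiquinone, 67.9 CPM with CCl4 and 58.8 CPM with vehicle (interval -0.11 to 0.53). The trifunctional protein subunits had estimates above 0. Hadha averaged 63.7 ± 11.6 CPM with CCl4 and 48.1 ± 7.76 CPM with vehicle (SD, n = 4 each; log2 fold change 0.41, edgeR adjusted p = 0.143), with groups that did not overlap. The main Hadha transcript, Hadha-201, is annotated as a processed transcript rather than protein-coding. It held a mean of 49.1% of Hadha counts with CCl4 and 46.4% with vehicle. Hadhb averaged 147 CPM with CCl4 and 119 CPM with vehicle (interval -0.05 to 0.67). The dehydrogenase Hadh averaged 37.7 CPM with CCl4 and 34.8 CPM with vehicle (interval -0.21 to 0.44), and Acaa2 110.1 CPM with CCl4 and 119 CPM with vehicle (interval -0.43 to 0.21).

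No peroxin passed. Of the 16 tested, edgeR and DESeq2 called 0, as did limma on the FPKM table, where Pex26 fell under the minimum level, and 2 (Pex16 and Pex2) had an unadjusted edgeR p under 0.05. Of all genes, edgeR called 15.2%, and 28.2% had an unadjusted edgeR p under 0.05. Log2 fold changes of the peroxins ran from -0.63 to 0.46 with a median of -0.05, and 4 of 16 were above 0, beside 7281 of 15212 genes. A 95% interval within a 2-fold change was found for 15 of 16, beside 7897 of 15212 genes. The exception was Pex26, the lowest of them, with an interval of -1.49 to 0.24. Of the membrane assembly genes, Pex16 had 14.6, 19.7, 16.1 and 11.5 CPM in CCl4 libraries 1 to 4, against 21.5, 20.5, 19.7 and 21.8 CPM in vehicle libraries 1 to 4. The CCl4 libraries all lay below the vehicle libraries, the closest pair being CCl4 2 and vehicle 3 (log2 fold change -0.43, SE 0.17, edgeR adjusted p = 0.117). Pex19, the chaperone of membrane proteins, averaged 49.4 CPM with CCl4 and 47.7 CPM with vehicle (interval -0.22 to 0.32), and its docking partner Pex3 17.4 CPM with CCl4 and 17.9 CPM with vehicle (interval -0.37 to 0.30).

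Import receptors and the docking complex leaned in both directions. Pex5, the receptor for the C-terminal targeting signal, had 78.2, 58.5, 67.9 and 55.4 CPM in CCl4 libraries 1 to 4, against 57.3, 27.1, 51.5 and 52.8 CPM in vehicle libraries 1 to 4. The groups overlapped through vehicle 1 and CCl4 4 (log2 fold change 0.46, SE 0.22, edgeR adjusted p = 0.196). Pex7, the receptor for the N-terminal signal, averaged 22.1 ± 1.22 CPM with CCl4 and 26.7 ± 3.93 CPM with vehicle, with groups apart (SD, n = 4 each; log2 fold change -0.27, edgeR adjusted p = 0.234). The docking proteins Pex13 and Pex14 had log2 fold changes of 0.31 (interval -0.0017 to 0.62) and 0.00 (interval -0.38 to 0.38). In the ubiquitin ligase ring that recycles the receptors, Pex2 averaged 42.0 ± 5.198 CPM with CCl4 and 53.3 ± 6.04 CPM with vehicle (SD, n = 4 each; log2 fold change -0.34, edgeR adjusted p = 0.138). Pex10 had a log2 fold change of -0.05 (interval -0.50 to 0.41).

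Receptor export and peroxisome proliferation showed no call either. The export ATPase Pex6 averaged 10.3 CPM with CCl4 and 12.4 CPM with vehicle (interval -0.62 to 0.08), and Pex26 1.34 CPM with CCl4 and 2.07 CPM with vehicle. Pex11 genes elongate and divide peroxisomes. Pex11a, the form induced by PPAR-alpha agonists in rodent liver, averaged 5.66 CPM with CCl4 and 6.75 CPM with vehicle (interval -0.77 to 0.26), and Pex11g 5.50 CPM with CCl4 and 5.70 CPM with vehicle (interval -0.52 to 0.41). The remaining 2 members had too few counts for a test. Pex5l, a neuronal relative of Pex5, had 3, 3, 2 and 17 counts in CCl4 libraries 1 to 4, against 2, 4, 6 and 5 in vehicle libraries 1 to 4, and Pex13-ps had 0 in every CCl4 library, against 1, 0, 1 and 0 in vehicle libraries 1 to 4.

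Vehicle 2 was the lowest of the 8 libraries for 21 of the 48 tested members (43.8%), beside 25.9% of all genes. Acox3, Abcd2, Abcd3, Crat, Cpt1a and Pex5 were among them. Leaving it out kept the 5 calls and added Abcd3, and leaving out both vehicle 2 and CCl4 4 added Abcd3 and Slc25a20.

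Shared promoter letters were sparse. Of the 50 members, 36 had a RefSeq promoter (GRCm38.p6, from 250 bases before to 50 after the start). The hexamer AGGTCA, a core of nuclear receptor sites, searched on both strands, occurred in 7 of 36 (19.4%), beside 18.1% of 27025 genes, namely Acadm, Acadvl, Cat, Cpt1a, Pex11g, Phyh and Scp2. The exact DR1 element, in which that hexamer is repeated with 1 base between the copies and which PPAR receptors are known to bind, occurred in 0 of 36, beside 0.0481% of genes. The E-box CACGTG, which does not overlap these letters, occurred in 0 of 36, beside 8.09% of genes. None of the 7 promoters with the hexamer belonged to a member that passed the test. With 5 of 48 members called, that count is too small to read.

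The steps around the members were followed in 10 lists of other genes. Of 14 tested genes of fatty acid uptake and activation, 5 were higher and 0 lower (median log2 fold change 0.34). They were the fatty acid receptor Cd36 (log2 fold change 2.18, SE 0.21), the transporter Slc27a1 (2.02, SE 0.27), the acetyl-CoA synthetases Acss1 (1.42, SE 0.22) and Acss2 (1.10, SE 0.17), and the long-chain synthetase Acsl3 (0.96, SE 0.19), with edgeR adjusted p of at most 0.0049. Slc27a1 had 122, 102, 169 and 109 CPM in CCl4 libraries 1 to 4, against 38.6, 16.0, 36.0 and 33.5 CPM in vehicle libraries 1 to 4, and no CCl4 library came near a vehicle one. Its direction was the reverse in the FPKM table (-0.21 on log2(FPKM + 1), limma adjusted p = 0.138). The estimate there was -1.22 on log2(FPKM + 0.1), so it depended on the constant added, as low values do. Of 13 genes that control carnitine entry, the AMPK subunit Prkag2 was higher (0.79, SE 0.22, edgeR adjusted p = 0.032). The AMPK subunits Prkag1 (-0.66, SE 0.14) and Prkab1 (-0.65, SE 0.16) and the carnitine transporter Slc22a21 (-1.01, SE 0.21) were lower (edgeR adjusted p of at most 0.017).

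Among 16 PPAR and oestrogen-related receptors and coregulators, Pparg (1.23, SE 0.21) was higher and the partner receptor Rxra (-0.60, SE 0.18) lower (edgeR adjusted p of at most 0.042). Of 14 other PPAR target genes 4 were higher and 2 lower. The lipid droplet coat gene Plin2 had 1774, 1485, 2217 and 1476 CPM in CCl4 libraries 1 to 4, against 746, 816, 1034 and 742 CPM in vehicle libraries 1 to 4, with no overlap (1.06, SE 0.19, edgeR adjusted p = 0.0029). The fatty acid binding protein Fabp4 (2.44, SE 0.35) and the pantetheinase Vnn1 (3.48, SE 0.64) were also higher. Vnn1 was low, at 0.713 to 3.08 CPM with CCl4 and 0.0464 to 0.240 CPM with vehicle. The thioesterase Acot1 (-1.46, SE 0.22) and the liver-enriched factor Creb3l3 (-1.30, SE 0.22) were lower (edgeR adjusted p of at most 0.0035 for these 4). Reads of Acot1 may be shared with near-identical members of its cluster.

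Ketone body use was also called in part. Oxct1, which activates ketone bodies for oxidation, had 213, 214, 237 and 173 CPM in CCl4 libraries 1 to 4, against 132, 91.3, 121 and 115 CPM in vehicle libraries 1 to 4. All CCl4 libraries were above all vehicle libraries (0.86, SE 0.16, edgeR adjusted p = 0.0036). Acat1, the mitochondrial thiolase of ketone bodies and isoleucine, went the other way, with 49.7, 63.4, 53.4 and 45.4 CPM in CCl4 libraries 1 to 4, against 111, 94.6, 103 and 99.3 CPM in vehicle libraries 1 to 4. These did not overlap (-0.95, SE 0.14, edgeR adjusted p = 0.00098). The hydratase Echs1 was the other call among 23 further mitochondrial enzymes (0.51, SE 0.15, edgeR adjusted p = 0.042), and Bdh2 the other among 6 ketone body genes (2.05, SE 0.57, edgeR adjusted p = 0.032), though its groups overlapped.

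Among further peroxisome genes calls were few. Of 27 other peroxisomal enzymes 2 were lower. The hydroxy acid oxidase Hao2 was lower, at 0.457 CPM with CCl4 and 1.93 CPM with vehicle (-2.08, SE 0.51, edgeR adjusted p = 0.018). The glyoxylate aminotransferase Agxt, chiefly a hepatocyte gene, was lower at 4.07 CPM with CCl4 and 9.46 CPM with vehicle (-1.22, SE 0.22, edgeR adjusted p = 0.0029). The summed hepatocyte markers overlapped between the groups. Of the 22, 2 were lower and 4 had a log2 fold change above 0, with a median of -0.22. Alb, the most abundant, was among the lower, at 29.6 CPM with CCl4 and 51.1 CPM with vehicle (edgeR adjusted p = 0.031). The part of hepatocyte RNA in the Hao2 and Agxt values was not tested. Of 8 plasmalogen genes, Tmem189, the desaturase of the last step, was higher (1.41, SE 0.16, edgeR adjusted p = 0.00016) and Pla2g16 lower (-0.61, SE 0.14, edgeR adjusted p = 0.012). Tmem189 overlaps other annotated genes, so its value is uncertain. Acbd5, which tethers peroxisomes to the endoplasmic reticulum, was the 1 call among 20 membrane and fission genes (0.54, SE 0.14, edgeR adjusted p = 0.024). Of 6 pexophagy genes edgeR and DESeq2 called 0, and 1 had an unadjusted edgeR p under 0.05, beside 28.2% of all genes.

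**Figure D5:**
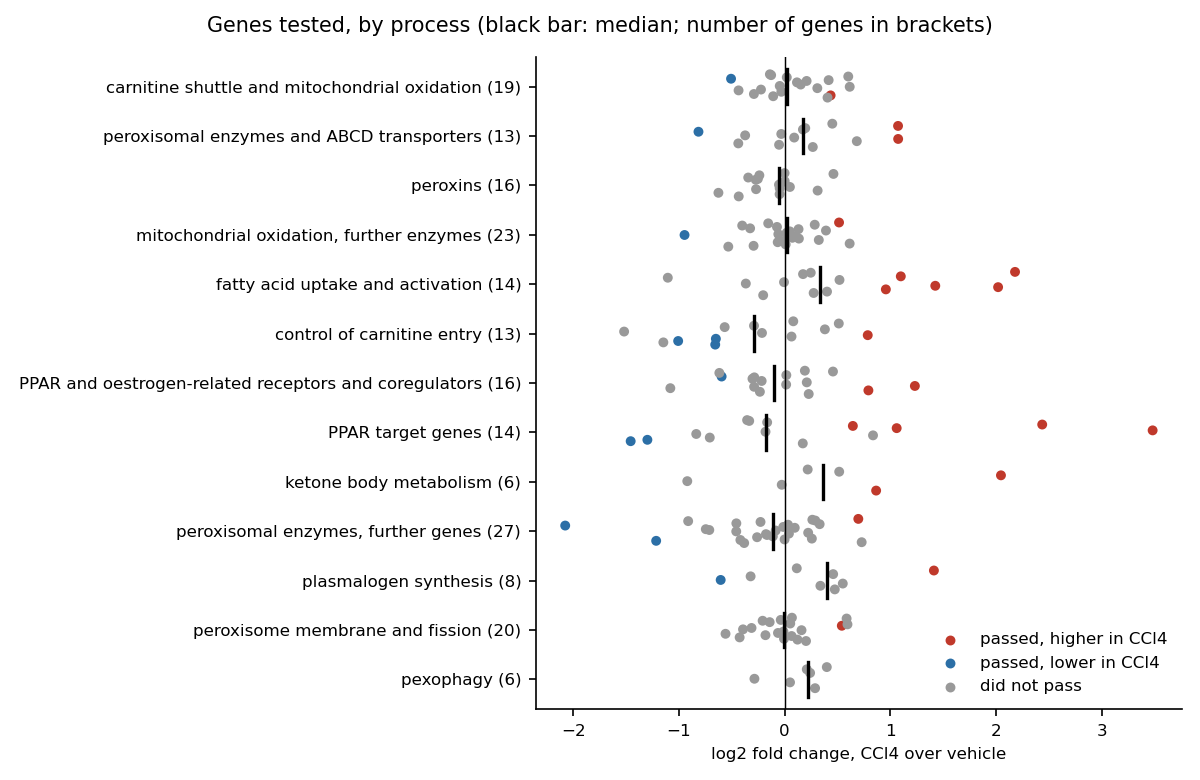
Log2 fold change (CCl4 over vehicle, edgeR) of every tested gene by process, with the members in the top 3 lines; points are genes, black bars are medians and the number tested is in brackets. Peroxins hold no colored point, while uptake and activation holds 5 higher genes between 0.96 and 2.18 and none lower.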

How the data were processed

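RNA of 8 sorted macrophage samples was amplified with a SMART-Seq kit, per the labels' protocols. The authors deposited kallisto estimated counts, transcript lengths and TPM per transcript, and a table of FPKM per gene, whose making the sources used here do not describe. The build was mm10, and kallisto, edgeR and limma are the tools listed, per the submitters' processing notes. Transcripts were matched to GENCODE M21 by identifier without version (116405 of 117494). The unmatched ones held 0.29% to 0.313% of the counts. Estimated counts were summed over 35906 genes and rounded. edgeR 4.0.16 (R 4.3.3) compared CCl4 with vehicle after filterByExpr (minimum count 10, minimum total 15) and TMM, with Benjamini-Hochberg adjustment over 15212 genes, two-sided, and 20694 genes were set aside. The SE is the fold change divided by the square root of F. Marker sums are CPM of the library total, and other CPM are TMM-normalized. Transcript shares needed a mean of at least 50 counts. Alternatives used DESeq2 1.42.0, limma 3.58.1 on log2(FPKM + 1) or log2(FPKM + 0.1) with a minimum mean of 0.1, other scalings and filters, length-scaled TPM and left-out libraries. Of the members, 21 have an exon that overlaps another gene, 19 of them on the opposite strand. Members with full values, apart from Abcd3 and Cpt1a, passed the test, or had the highest level or largest change in their role. Abcd3 was added after its values were seen, and others are named with their level or interval. A few genes are not reported here. From other lists, up to 5 calls with the largest change were named. Members and lists were chosen with earlier results of these data known.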

Additional observations from a re-analysis of the deposited data

Results flagged for a closer look

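In 196 sets of 4 libraries from 1 group, 12 held a single value far from the other 3, where chance alone marks about 1 in 20. Vehicle 2 was that library for Acox3 (38.8 CPM, the others 59.5 to 62.5), Acaa1a (69.3 CPM, the others 92.2 to 96.5) and Etfb (144.8 CPM, the others 110.4 to 114.5). It was also the one with the lowest share of Acox3-202 (35.03%, the others 58.0% to 61.8%) and of the main Slc25a20 transcript (81.3%, the others 86.7% to 87.5%). CCl4 1 was low for Crot (42 CPM, the others 53.1 to 55.2) and high in its share of the main Hadha transcript (56.8%, the others 46.1% to 47.3%). CCl4 4 was low for Pex6 (9.23 CPM, the others 10.6 to 10.7). Vehicle 4 was high in its share of the main Etfdh transcript (92.7%, the others 78.8% to 80.2%). Vehicle 1 was high in its share of the main Pex7 transcript (69.5%, the others 63.1% to 63.6%) and for Tmem189 (77.8 CPM, the others 56.9 to 60.3). Vehicle 3 was high for Acot1 (102.8 CPM, the others 66.2 to 71.9).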

How the results depend on the processing

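Acox3 passed in 19 of 20 alternatives (log2 fold change 0.73 to 1.15), failing with the unfiltered FPKM table, Abcd4 in 17 (-0.95 to -0.62) and Abcd2 in 16 (0.44 to 1.33). Eci1 passed in 10 of the 18 that gave a value and Acadl in 6 of 20. Among genes of other lists, calls close to the threshold were lost in 12 of 20 for Echs1, 14 for Prkag2, 10 for Acbd5, 8 for Rxra and 7 of 19 for Bdh2. Eci1 reversed to 0.016 with the unfiltered FPKM table, where it is listed at 0 in most libraries, and Slc27a1 reversed to -0.21, -1.22 and -0.21 in the 3 FPKM settings. The cause was not tested. Members higher and lower numbered 2 and 7 with library sizes alone and with upper-quartile scaling, 3 and 1 without a filter, 4 and 4 at a minimum count of 50, 5 and 2 without CCl4 4 and vehicle 2, 1 and 2 with length-scaled TPM, 5 and 3 with DESeq2, and 1 and 0, 1 and 0, and 0 and 0 in the FPKM settings. Leaving out single libraries gave 2 to 4 higher and 1 to 2 lower. Library sizes alone moved the median of all genes to -0.16 and upper-quartile scaling to -0.12, and Pex16 and Pex2 passed as lower in both. The share of calls that were higher was 58.8%, against 43.1% and 47.5% in these. All genes higher numbered 1358, against 564, 594 and 335 in the FPKM settings. All genes lower numbered 953, against 1431 with library sizes alone, 566, 599 and 315 in the FPKM settings and 578 to 1163 without single libraries.

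The replicate number as a block gave 3 members higher and 2 lower, adding Abcd3 and ending the call of Acadl. The deviations of same-numbered libraries from their group means had correlations of 0.02, -0.24, 0.04 and -0.17. Deviations within a group of 4 libraries sum to 0, so these values cannot show whether same-numbered libraries were paired. Whether they were is not known. The difference in the share of Acox3-202 was 20.0 points by TPM and 17.2 to 26.1 points without single libraries. The planned comparison of protein ends across members was not run. Depth limits the lowest members, since counts of a few reads, as in Pex5l, allow no comparison.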
